A study of Mus musculus with 18 samples.

Results

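Livers of hepatocyte mineralocorticoid receptor (MR) knockout (HMRKO) mice were compared with livers of littermate control mice after a sham operation, which leaves the heart without an infarct. The comparison asks how the liver transcriptome differed between these genotypes without an infarct. In HMRKO mice both copies of the MR gene are floxed (MRflox/flox), and a transgene (Alb-Cre) expresses Cre recombinase from the albumin promoter, which is active in hepatocytes. Littermate control (LC) mice carry the same floxed alleles and no Cre, and the labels give them as wild type. All mice are on the C57BL/6 strain, the label gives their age as post natal week 12, and the livers were taken 1 day after surgery. The members are the 3 HMRKO + sham and the 3 LC + sham livers, 6 of the 18 livers of the series. The 3 HMRKO + MI and 3 LC + MI livers of the same day, from mice of the same genotypes with the left coronary artery permanently ligated (myocardial infarction, MI), entered the model and are set beside the sham results. Because Cre is present in HMRKO mice alone, an effect of Cre and an effect of MR loss cannot be told apart in this design.

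MR, encoded by Nr3c2, is a nuclear receptor that binds aldosterone and also glucocorticoids, moves into the nucleus on binding and regulates genes through DNA elements that it shares with the glucocorticoid receptor, Nr3c1. It is best known for sodium retention in the kidney, where an enzyme that inactivates glucocorticoids leaves it to aldosterone. In liver, corticosteroids act on glucose production, lipid storage, the acute-phase response and the clock, and most of this is attributed to the glucocorticoid receptor.

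Total counts were 21164728 to 22621385 in HMRKO + sham livers and 25457546 to 26110605 in LC + sham livers, and 14266 of the 50600 genes listed passed the filter on low counts and were tested. The share of counts from mitochondrially encoded genes was 10.1%, 15.6% and 11.6% in HMRKO + sham livers and 9.65%, 7.53% and 8.17% in LC + sham livers, so the groups did not overlap in depth or in this share. A pair of livers stood apart from the rest. HMRKO + sham replicate 2 lay at one end of the first principal component of the sham livers (28.1% of the variance) and had the lowest share of albumin counts (2.28%), and LC + sham replicate 1 lay at one end of the second (27.2%). Hepatocyte markers were abundant in all 6 livers, and their summed level was 85524 to 101633 CPM (counts of a gene as a share of the library, scaled so that a library sums to about 1000000) in HMRKO + sham livers and 105609 to 114602 CPM in LC + sham livers (exact permutation test, two-sided, p = 0.1, the smallest p that 3 against 3 allows).

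By counts over the whole gene, Nr3c2 was lower, but not absent, in HMRKO livers. Its level was 2.93, 3.76 and 2.55 CPM in the HMRKO + sham livers, against 5.60, 6.70 and 4.71 CPM in the LC + sham livers, with no overlap between the groups. The log2 fold change was -0.88 (standard error, SE, 0.25), with an unadjusted p of 0.0041 and an adjusted p of 0.472 by edgeR, so the deleted gene itself did not pass a threshold of 0.05 over all genes. After MI the level was 0.89, 1.10 and 0.91 CPM in HMRKO livers and 3.56, 2.13 and 1.90 CPM in LC livers, a log2 fold change of -1.36 (adjusted p = 0.00505 by edgeR). The reads were counted over the gene. Which exons lie between the loxP sites is not given in the sources used here, and reads from exons that remain, or from cells other than hepatocytes, are counted too. The paper reports MR as almost undetectable in HMRKO livers, both by qRT-PCR and by Western blotting. Those are other measures than counts over the gene, so the values here do not measure how complete the deletion was.

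Only a few genes passed over the whole transcriptome. By edgeR, 5 of the 14266 genes tested (0.035%) had an adjusted p under 0.05, and 4 of them (0.028%) also had an absolute log2 fold change over 1, with 3 higher (0.021%) and 1 lower (0.00701%) in HMRKO + sham livers. In the interleukin-6 pathway the alpha subunit of the IL-6 receptor, Il6ra, fell. Among transcription factors Pparg, a nuclear receptor that drives lipid storage, rose, and so did Tpm2, which encodes beta-tropomyosin, and Osbpl3, which encodes an oxysterol-binding protein homologue of the endoplasmic reticulum. The fifth gene, AA986860, fell, and no role is given for it here. At an unadjusted p under 0.05, 838 genes (5.87%) were counted, of which 417 (2.92%) were higher and 421 (2.95%) lower, and the groups did not overlap in 1588 genes (11.1%), 764 higher (5.36%) and 824 lower (5.78%).

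**Figure D1:**
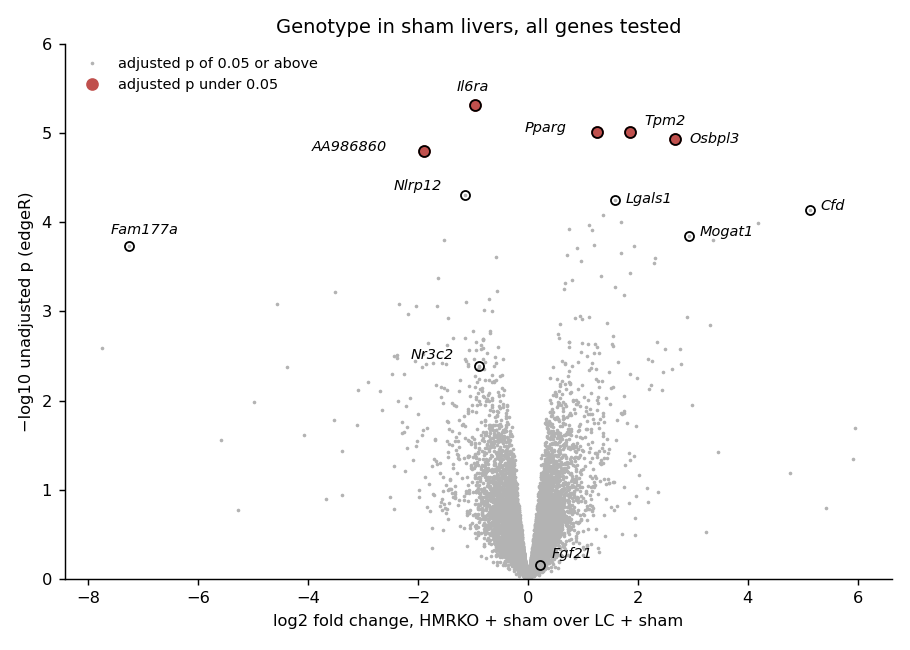
Each point is 1 of the 14266 genes tested, with the log2 fold change (HMRKO + sham over LC + sham) on the horizontal axis and minus log10 of the unadjusted edgeR p on the vertical axis. The 5 red points are the genes with an adjusted p under 0.05, and open circles mark other genes described in the text, with Nr3c2 at -0.88 and Fgf21 at 0.23.

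The gene with the smallest unadjusted p, and the smallest fold of the 5, was Il6ra (ENSMUSG00000027947), with 21.7, 20.8 and 18.3 CPM in the HMRKO + sham livers, against 38.8, 42.9 and 37.0 CPM in the LC + sham livers. Every HMRKO liver was therefore below every LC liver, and the spread within each group was small (20.3 ± 1.76 against 39.5 ± 3.0 CPM, mean ± SD, n = 3 livers each). The log2 fold change was -0.96 (SE 0.13, edgeR adjusted p = 0.0415). Its signalling partner Il6st, which encodes gp130, had a log2 fold change of -0.07 (SE 0.17) and the transcription factor Stat3 one of -0.20 (SE 0.17). Neither passed, with adjusted p of 0.985 and 0.952 by edgeR. Of the 17 tested genes of IL-6 and STAT3 signalling, Il6ra was the only one at an unadjusted p under 0.05. That count is close to the share over all genes (5.87%), so it is not a result about the pathway.

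Pparg had 11.3, 13.0 and 11.5 CPM in the HMRKO + sham livers, against 3.73, 4.85 and 6.31 CPM in the LC + sham livers. The log2 fold change was 1.26 (SE 0.18, edgeR adjusted p = 0.0415), and the HMRKO values were close together while the LC values were more spread. Tpm2 showed the same separation, with 14.8, 21.9 and 18.3 CPM in the HMRKO + sham livers against 3.12, 5.03 and 7.06 CPM in the LC + sham livers (log2 fold change 1.85, SE 0.27, edgeR adjusted p = 0.0415). Osbpl3 had 6.2, 4.96 and 13.4 CPM in the HMRKO + sham livers, against 1.15, 0.888 and 1.79 CPM in the LC + sham livers, a log2 fold change of 2.68 (SE 0.39, edgeR adjusted p = 0.0415). The third HMRKO liver carried much of that mean. AA986860 had 1.09, 1.11 and 0.878 CPM in the HMRKO + sham livers against 3.63, 2.52 and 5.34 CPM in the LC + sham livers (log2 fold change -1.90, SE 0.29, edgeR adjusted p = 0.0457).

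**Figure D2:**
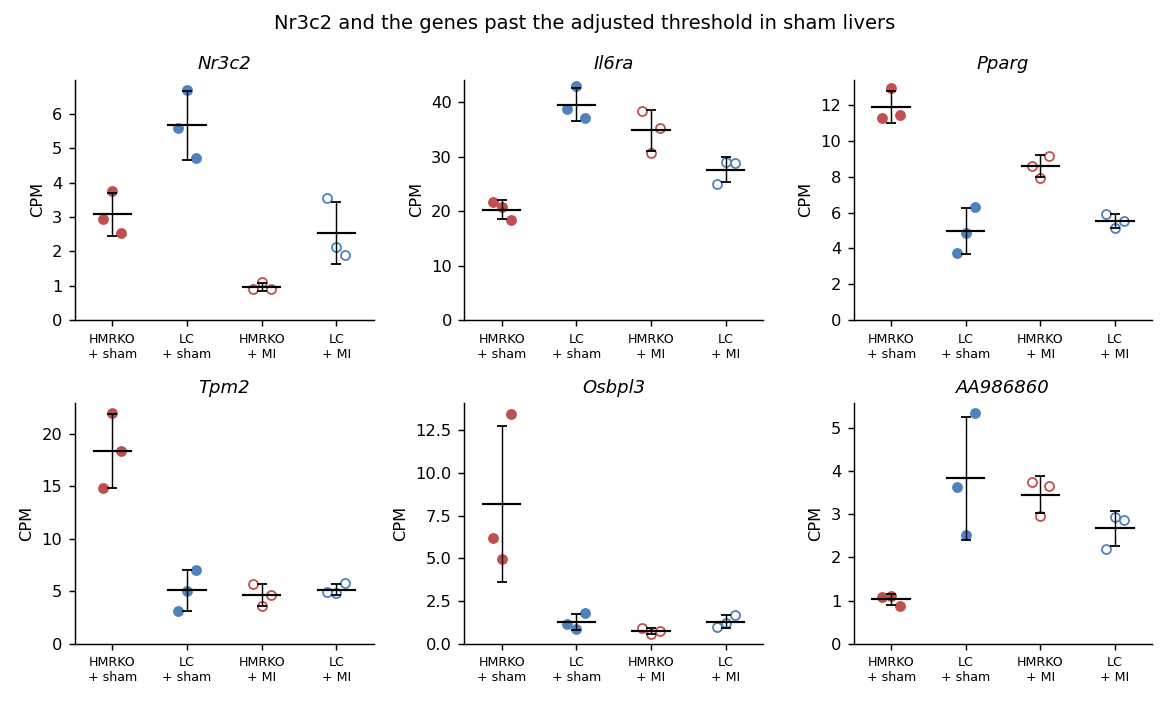
Level in CPM of Nr3c2 and of the 5 genes with an adjusted p under 0.05 in sham livers, by liver, for HMRKO + sham, LC + sham, HMRKO + MI and LC + MI. Filled points are sham livers, open points MI livers, horizontal bars are means and error bars 1 SD (n = 3). In sham livers no gene of the 6 has overlapping groups, and after MI the difference has the opposite sign for Il6ra, Tpm2, Osbpl3 and AA986860. The Tpm2 groups overlap after MI.

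These 5 calls rest on a margin that a single liver can move. Each gene kept its direction in all 20 alternative settings. All 5 passed by DESeq2, with RLE size factors, with either other filter and without mitochondrially encoded genes. None passed when the fit held the 6 sham livers only, when both livers that stood apart were left out, or without HMRKO + sham replicate 1 or 3, LC + sham replicate 1 or any 1 of the HMRKO + MI livers or LC + MI replicate 2, which only lend their spread. Without both livers that stood apart the log2 fold changes were -1.0 for Il6ra, 1.03 for Pparg, 1.45 for Tpm2, 2.87 for Osbpl3 and -1.99 for AA986860, with adjusted p of 0.134 to 0.240 by edgeR.

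The start regions of the 5 genes were read from RefSeq (GRCm38.p6, 250 bases before to 50 after the start), where all 5 matched. The windows of the gene that fell with the smallest p and of the gene that rose with the smallest p are shown, Il6ra at chr3:89913147-89913446 on the minus strand and the first of 3 listed Pparg starts at chr6:115360894-115361193 on the plus strand. Both are written 5′ to 3′, and capitals mark AGGTCA, the half-site that nuclear receptors such as PPARG bind, or AGAACA, the half-site shared by the corticosteroid receptors, on either strand.
Il6ra: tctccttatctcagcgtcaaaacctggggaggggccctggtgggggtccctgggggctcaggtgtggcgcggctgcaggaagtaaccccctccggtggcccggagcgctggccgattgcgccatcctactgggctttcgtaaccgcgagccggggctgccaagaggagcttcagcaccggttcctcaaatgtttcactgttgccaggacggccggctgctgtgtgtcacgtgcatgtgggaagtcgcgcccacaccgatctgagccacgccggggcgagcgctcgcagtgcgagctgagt
Pparg: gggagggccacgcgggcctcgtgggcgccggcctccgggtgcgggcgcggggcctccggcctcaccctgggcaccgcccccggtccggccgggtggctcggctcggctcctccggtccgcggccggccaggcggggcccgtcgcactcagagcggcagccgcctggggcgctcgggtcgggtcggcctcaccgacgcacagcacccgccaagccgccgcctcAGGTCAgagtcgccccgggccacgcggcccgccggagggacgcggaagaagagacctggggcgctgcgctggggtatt
AGAACA was found in none of the 7 windows of the 5 genes and in 19% of the 32851 windows of the table. AGGTCA was found in 2 of the 3 Pparg windows, in no window of the other 4 genes, and in 16.3% of all windows. Neither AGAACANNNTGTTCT nor AGGTCANAGGTCA, the arrangements that hold a receptor pair, was found in the 7 windows, and they occurred in 0.00913% and 0.0396% of all windows. These windows are short and the files hold no binding data.

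Genes of lipid droplets and known PPARG targets, a list that holds Pparg itself, leaned higher in HMRKO + sham livers. Of the 24 tested, Pparg included, 21 had a positive log2 fold change, and 8 were higher and 0 lower at an unadjusted p under 0.05, against 2.92% of all genes higher. The list median was 0.25 (0.10 without LC + sham replicate 1), against -0.01 for all genes. Pparg alone passed after adjustment over all genes by edgeR, and 2 members passed by DESeq2. Mogat1, a monoacylglycerol acyltransferase that feeds triglyceride synthesis, had 1.51, 2.79 and 3.38 CPM in the HMRKO + sham livers against 0.179, 0.259 and 0.56 CPM in the LC + sham livers (log2 fold change 2.93, edgeR adjusted p = 0.132). Cidec, a lipid droplet fusion protein, had 5.24, 4.48 and 6.06 CPM in the HMRKO + sham livers, against 0.826, 1.30 and 3.03 CPM in the LC + sham livers (log2 fold change 1.62, edgeR adjusted p = 0.706). The groups did not overlap in either gene, though Mogat1 also met a naming rule that required this.

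Fitm1, which helps package fat into droplets, had 70.9, 87.3 and 108 CPM in the HMRKO + sham livers against 19.7, 49.3 and 50.9 CPM in the LC + sham livers, and Cd36, a fatty acid uptake protein, had 19.9, 29.8 and 35.4 CPM against 13.5, 15 and 18.2 CPM. Pnpla3, a droplet-associated lipid hydrolase, was uneven, with 6.79, 0.674 and 15.8 CPM in the HMRKO + sham livers, against 0.934 to 1.26 CPM in the LC + sham livers, and the second HMRKO liver lay below all 3 LC livers. G0s2, an inhibitor of the lipase ATGL, was also uneven, with values of 49.1, 125 and 368 CPM in the HMRKO + sham livers against 47.4, 45.7 and 74.7 CPM in the LC + sham livers. Lipe, hormone-sensitive lipase, had a log2 fold change of 0.63, and the droplet coat gene Plin4 one of 0.89 (unadjusted p = 0.0528 by edgeR). Without both livers that stood apart, 5 members of the list were higher at an unadjusted p under 0.05 and 0 were lower. Without HMRKO + sham replicate 3 alone the count was also 5.

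**Figure D3:**
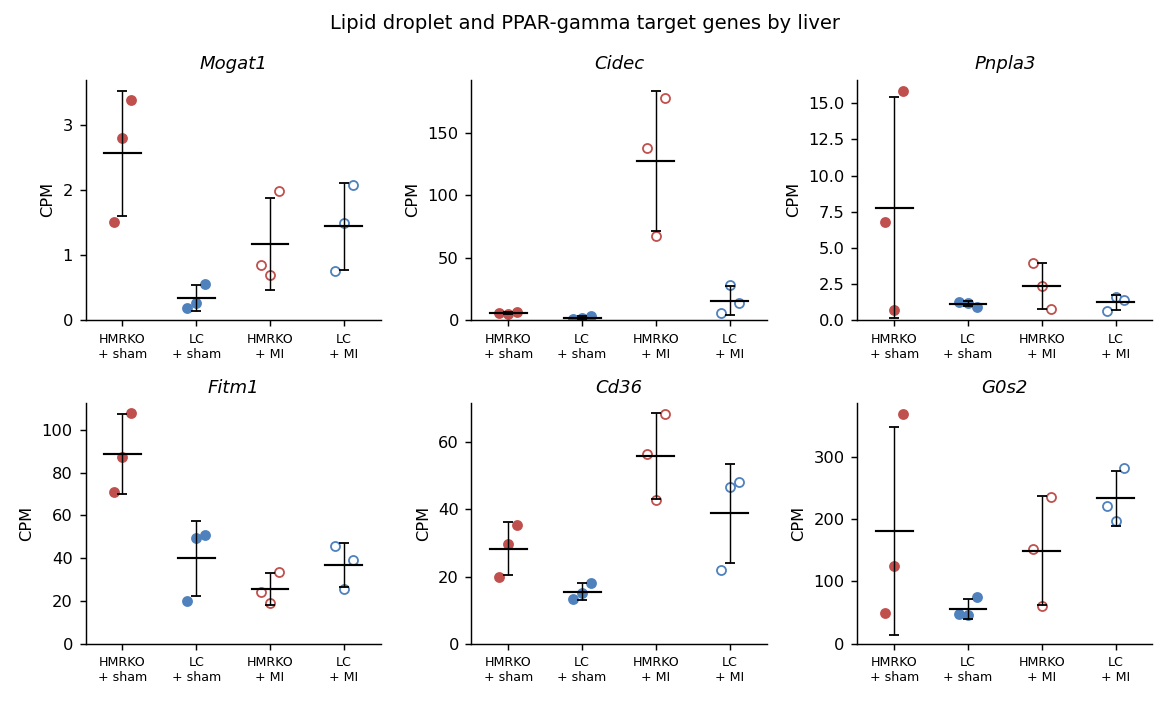
Level in CPM by liver of 6 lipid droplet and PPARG target genes, for HMRKO + sham, LC + sham, HMRKO + MI and LC + MI (filled points sham, open points MI, bars means, error bars 1 SD, n = 3). In sham livers the groups are apart for Mogat1, Cidec, Fitm1 and Cd36, while Pnpla3 and G0s2 overlap, with 1 HMRKO liver low in each.

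Fatty acid oxidation genes leaned the same way. Of 27 tested, 25 had a positive log2 fold change and 4 were higher and 0 lower at an unadjusted p under 0.05, against 2.92% of all genes higher, with a median of 0.17 (0.074 without HMRKO + sham replicate 3). Vnn1, a pantetheinase and a PPAR-alpha target in mouse liver, stood out with 48.3, 52.6 and 49.9 CPM in the HMRKO + sham livers against 5.17, 17.7 and 16.5 CPM in the LC + sham livers (log2 fold change 1.94, SE 0.38, edgeR adjusted p = 0.132). Also among these were Acot2, a mitochondrial acyl-CoA thioesterase, and Acaa1b, a peroxisomal thiolase, with log2 fold changes of 0.95 and 0.99. Ppara itself was 12.7, 10.7 and 19.3 CPM in the HMRKO + sham livers, against 9.19, 15.5 and 8.85 CPM in the LC + sham livers, which overlap. Ppard had a log2 fold change of 0.58 (unadjusted p = 0.00934 by edgeR). Without HMRKO + sham replicate 3 or LC + sham replicate 1 the count for the list was 1, and without both livers that stood apart it was 2.

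Among the other genes with the smallest p, several had higher values in HMRKO + sham livers without passing by edgeR. DESeq2 gave smaller adjusted p, such as 5.47e-05 for Cfd, 4.63e-05 for Lgals1 and 0.000254 for Clstn3, which passed. Cfd, which encodes complement factor D (adipsin), had the widest gap, with 34.2, 191 and 170 CPM in the HMRKO + sham livers against 2.51, 4.0 and 4.86 CPM in the LC + sham livers (log2 fold change 5.12, SE 0.90, edgeR adjusted p = 0.125). Cfd is abundant in fat, and the other adipocyte markers did not all do the same. Retn, which encodes resistin, had few counts but followed Cfd, with 2, 8 and 6 counts in the HMRKO + sham livers against 0, 0 and 1 in the LC + sham livers, and both genes were lowest among the HMRKO livers in replicate 1. Lep and Plin1, a coat protein of adipocyte lipid droplets, had no count in any of the 6 livers, Adipoq had 1 count in 1 HMRKO + sham liver and 1 count in 1 LC + sham liver, and Fabp4 had a log2 fold change of 0.22 (SE 0.36). Of the 7 adipocyte markers that could be tested, 3 (Cfd, Lipe and Car3) were higher and 0 lower at an unadjusted p under 0.05, against 2.92% of all genes higher. The summed level of all 12 markers was 1934 to 3598 CPM in HMRKO + sham livers and 1199 to 1932 CPM in LC + sham livers (exact permutation test, two-sided, p = 0.1), most of it Car3, which hepatocytes express too. The part of fat tissue in the Cfd value was not tested.

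Lgals1, galectin-1, had 39.1, 49.8 and 59.6 CPM in the HMRKO + sham livers, against 13.8, 14.2 and 21.6 CPM in the LC + sham livers (log2 fold change 1.58, edgeR adjusted p = 0.113). Clstn3, calsyntenin-3, had 26.4, 35.4 and 47.8 CPM in the HMRKO + sham livers against 4.59, 5.29 and 12.3 CPM in the LC + sham livers (log2 fold change 2.31). Gadd45a, a growth arrest and DNA damage gene, had a log2 fold change of 1.36, and it had the smallest adjusted p of the genes described when both livers that stood apart were left out (0.0880 by edgeR). Rarb, a retinoic acid receptor, had 3.35, 4.19 and 3.73 CPM in the HMRKO + sham livers against 1.97, 1.70 and 1.31 CPM in the LC + sham livers, and Tlr5, the flagellin receptor, 6.70, 9.20 and 8.73 CPM against 3.34, 4.59 and 3.47 CPM. Olig1, a transcription factor of the oligodendrocyte lineage, had a log2 fold change of 1.21, and the pseudogene Tmem181b-ps, whose reads may be shared with its parent gene, one of 1.69. Ccl3, a macrophage chemokine, had 0.922 to 1.05 CPM in HMRKO + sham livers and at most 0.0747 CPM in LC + sham livers, and Acod1, which makes itaconate in activated macrophages, 0.796 to 1.25 CPM and at most 0.149 CPM. All of these groups were apart without overlap, which was so for 5.36% of all genes in that direction. Most of these genes were named by a rule that required this, so it is not a result about them.

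On the lower side, Nlrp12, a regulator of innate immune signalling, had 15, 16.3 and 8.87 CPM in the HMRKO + sham livers against 29.5, 32.1 and 26.6 CPM in the LC + sham livers (log2 fold change -1.13, SE 0.19, edgeR adjusted p = 0.113). Fam177a was almost missing in HMRKO + sham livers, with 1 count in all 3 against 250 counts in the LC + sham livers. The ratio was 0.00484 (95% counting interval 0.000122 to 0.0272), and this interval leaves out the spread between livers. With that spread the log2 fold change was -7.25 (SE 1.41, edgeR adjusted p = 0.132), so Fam177a did not pass by edgeR. By DESeq2 the adjusted p was 4.63e-05 for Nlrp12 and 0.00414 for Fam177a. It was also at 0 CPM in LC + MI replicate 1 and above 1 CPM in the other 5 MI livers, so a level at 0 was not limited to HMRKO livers. Serpina1e, an alpha-1-antitrypsin paralogue whose reads can be shared with its near-identical copies, had 4864, 2351 and 3043 CPM in the HMRKO + sham livers against 11096, 13348 and 7502 CPM in the LC + sham livers (log2 fold change -1.64, edgeR adjusted p = 0.201). Plac9b, a further gene with a close copy, had a log2 fold change of -1.53, B3gnt3, a glycosyltransferase, one of -3.50, Tceal9 one of -1.12 and Haus8, a subunit of the spindle complex augmin, one of -1.46.

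Several of the lower genes were led by LC + sham replicate 1. Tff3, a mucosal trefoil peptide, had 2.60, 0.723 and 1.36 CPM in the HMRKO + sham livers against 102, 6.33 and 3.88 CPM in the LC + sham livers, and Lpl, lipoprotein lipase, 12.8, 5.83 and 7.59 CPM against 82.9, 15.7 and 20.2 CPM. Asns, asparagine synthetase, had 0.922, 0.482 and 0.395 CPM in the HMRKO + sham livers against 6.10, 1.48 and 1.68 CPM in the LC + sham livers. Cyp39a1, an oxysterol hydroxylase, followed the same pattern, with 0.819 to 1.34 CPM in the HMRKO + sham livers against 5.13, 1.89 and 2.58 CPM in the LC + sham livers. Without both livers that stood apart the log2 fold changes were -1.36 for Tff3, -0.81 for Lpl, -1.25 for Asns and -1.0 for Cyp39a1, against -4.57, -2.18, -2.35 and -1.65 with them.

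Macrophage markers were lower as a group in HMRKO + sham livers. Of 18 tested Kupffer cell and macrophage markers, 17 had a negative log2 fold change, with 9 lower and 0 higher at an unadjusted p under 0.05, against 2.95% of all genes lower, and the median was -0.58 (-0.37 without HMRKO + sham replicate 2). None passed after adjustment. The complement genes C1qa, C1qb and C1qc had log2 fold changes of -0.57, -0.83 and -0.77, the lysosomal marker Cd68 one of -0.65 and Csf1r, the receptor for the macrophage growth factor CSF1, one of -0.42. C1qb had 22.7, 11.7 and 25.9 CPM in the HMRKO + sham livers against 35.7, 40.8 and 31.2 CPM in the LC + sham livers, and the lowest value was again in the HMRKO liver that stood apart. The summed level of the markers was 193 to 317 CPM in HMRKO + sham livers and 327 to 431 CPM in LC + sham livers (exact permutation test, two-sided, p = 0.1). Without both livers that stood apart 3 markers were lower, without HMRKO + sham replicate 2 alone 4 were, and without LC + sham replicate 1 alone 5 were. Fewer macrophages and less of this RNA per macrophage cannot be told apart in whole liver, here or for any other cell type.

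Markers of other non-parenchymal cells also leaned lower. Signs were as one-sided in hepatocyte markers (18 of 20 negative) and ribosomal proteins (27 of 28 negative), so this lean was not particular to non-parenchymal cells. Of all 14266 genes tested, 7396 had a negative log2 fold change. All 14 tested stellate cell and fibroblast markers had a negative log2 fold change, with a median of -0.25, and 0 were lower at an unadjusted p under 0.05 by edgeR. Without HMRKO + sham replicate 2 that median was 0.041, and without both livers that stood apart it was 0.079. Of 14 sinusoidal endothelial markers 12 had a negative value, with a median of -0.33. At an unadjusted p under 0.05 by edgeR 1 was lower, against 2.95% of all genes, and 8 were lower without HMRKO + sham replicate 3. Whether macrophage markers differed more than these was not tested. Summed levels of neutrophil, lymphocyte, sinusoidal endothelial, stellate, cholangiocyte, erythroid, muscle and acinar markers overlapped between the groups, with exact permutation p of 0.4 to 1 (two-sided). The level of Alb, the gene of albumin, lay below every LC + sham liver in each HMRKO + sham liver (log2 fold change -0.38, edgeR adjusted p = 0.905), as was Apoa1 (-0.30).

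**Figure D4:**
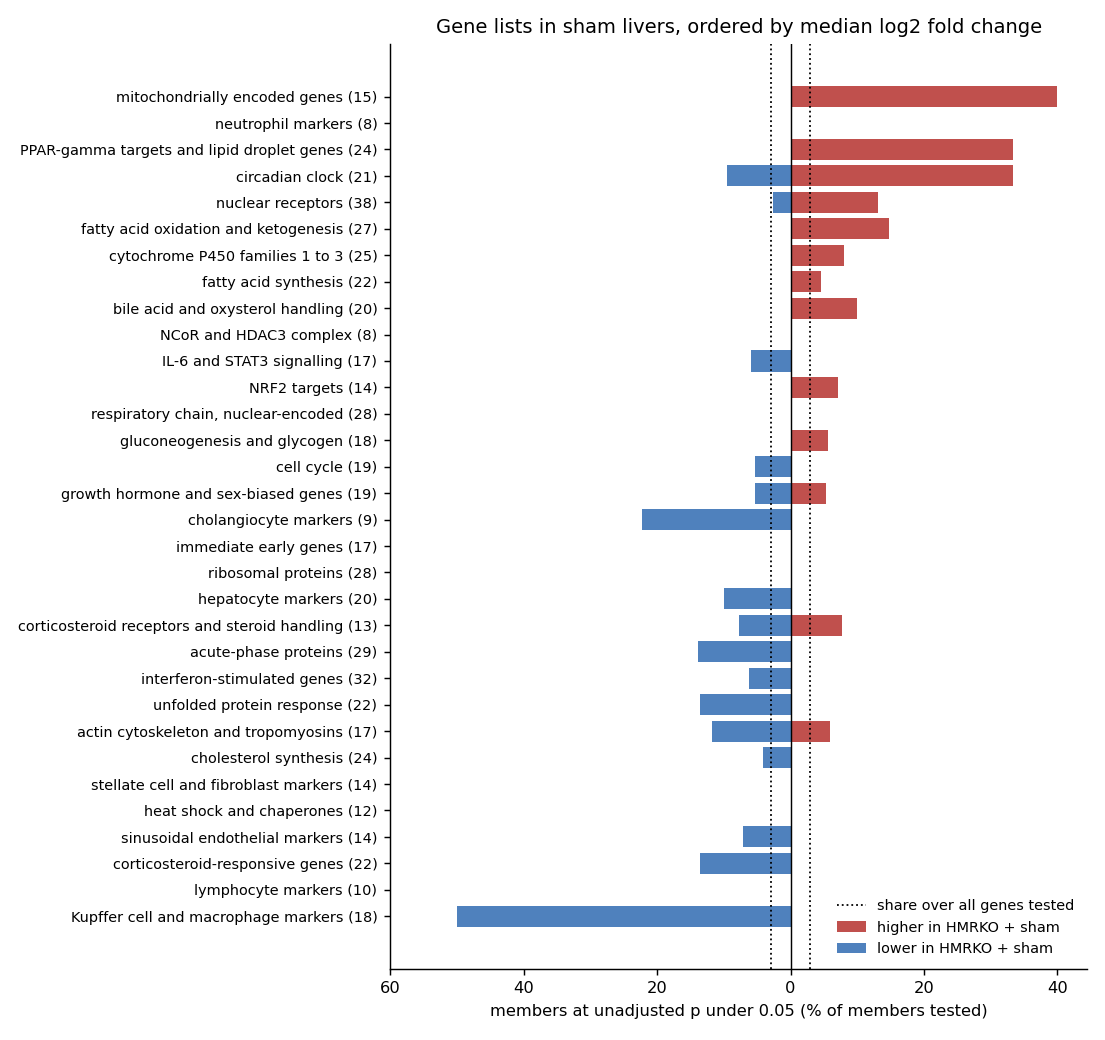
Share of each gene list at an unadjusted edgeR p under 0.05, higher (right, red) or lower (left, blue) in HMRKO + sham livers, with the number of members tested in parentheses and lists of at least 8 tested members shown in order of their median log2 fold change. Dotted lines are the shares over all genes, 2.92% higher and 2.95% lower; Kupffer cell markers reach 9 of 18 lower and lipid droplet genes 8 of 24 higher.

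Clock genes differed in both directions. Of 21 tested, 7 were higher and 2 lower at an unadjusted p under 0.05, against 2.92% of all genes higher and 2.95% lower. After adjustment 0 passed by edgeR, and 1 passed, higher, by DESeq2. Per3, a clock repressor, had 54.8, 63.4 and 70.1 CPM in the HMRKO + sham livers against 32.3, 38.2 and 41.8 CPM in the LC + sham livers (log2 fold change 0.75, SE 0.14, edgeR adjusted p = 0.125). The output factor Dbp had 289, 308 and 291 CPM in the HMRKO + sham livers against 192, 180 and 215 CPM in the LC + sham livers, a log2 fold change of 0.60, and Bhlhe41 and Wee1 had 0.98 and 0.71. The activators Clock and Arntl had -0.59 and -1.14. The repressors Nr1d1 and Nr1d2 had 0.22 and 0.28 (unadjusted p = 0.538 and 0.0938 by edgeR). The hour at which each liver was taken is not given in the sources used here, and its part in these values was not tested. Without both livers that stood apart 2 clock genes were higher and 0 lower, and without HMRKO + sham replicate 2 or 3 or LC + sham replicate 1 the higher count was 3 each, and without LC + sham replicate 2 it was 4.

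Genes that corticosteroids induce were mostly lower, without a pass. Of 22 tested, 16 had a negative log2 fold change and 3 were lower and 0 higher at an unadjusted p under 0.05, against 2.95% of all genes lower, with a median of -0.34 (-0.17 without LC + sham replicate 2). Tsc22d3 (GILZ), a direct target of both corticosteroid receptors, had 73.1, 56.8 and 56.4 CPM in the HMRKO + sham livers, against 62.9, 107 and 121 CPM in the LC + sham livers, which overlap (log2 fold change -0.64). Ddit4, an inhibitor of mTOR signalling, had 3.27, 1.98 and 3.55 CPM in the HMRKO + sham livers against 4.31, 5.26 and 7.81 CPM in the LC + sham livers, and Igfbp1 rested on 1 LC liver (31.7 CPM against 6.17 and 2.43 CPM in the others). Nr3c1, the glucocorticoid receptor, was 27.5, 28.9 and 31.2 CPM in the HMRKO + sham livers, against 32.2, 28.8 and 25.1 CPM in the LC + sham livers, a log2 fold change of 0.02 (SE 0.14). Hsd11b1, which regenerates active glucocorticoid, had -0.16 (SE 0.16). Serpina6, the plasma carrier of corticosteroids, had 416, 307 and 552 CPM in the HMRKO + sham livers against 247, 257 and 196 CPM in the LC + sham livers (log2 fold change 0.86, unadjusted p = 0.0436 by edgeR). Without LC + sham replicate 3 the list had 1 lower gene, and without both livers that stood apart it had 6.

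Other lists are given here by their counts, beside 2.92% of all genes higher and 2.95% lower at the same threshold. Among 29 acute-phase proteins 4 were lower and 0 higher at an unadjusted p under 0.05, among them Ahsg, fetuin-A, which is itself reduced in inflammation, and the fibrinogen chains Fgb and Fgg, with log2 fold changes of -0.50, -0.49 and -0.52. Without HMRKO + sham replicate 3 none of these proteins was lower at that threshold, without LC + sham replicate 2 or 3 there were 2, and without both livers that stood apart 2 were lower and 1 higher. Among 22 genes of the unfolded protein response 3 were lower and 0 higher, including the chaperone Calr (-0.55) and Sdf2l1 (-0.69), while Xbp1, a transcription factor of that response, had 0.02 (SE 0.19). That list had 6 lower genes without LC + sham replicate 1. In cholesterol synthesis 1 of 24 genes was lower, close to the share over all genes, and this was Sqle, squalene epoxidase (28.9, 19.1 and 30.1 CPM in the HMRKO + sham livers against 34.8, 62.9 and 54.6 CPM in the LC + sham livers), and Hmgcs1 had -0.78 with no overlap. Of the 15 mitochondrially encoded genes all had a positive log2 fold change and 6 were higher at an unadjusted p under 0.05, among them mt-Co1 and mt-Co2 (0.78 and 0.89), but 0 were without HMRKO + sham replicate 2. The 28 nuclear-encoded respiratory chain genes had 0 at that threshold and a median of 0.03.

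Fgf21, the liver hormone on which the study centres, was low in every sham liver. It had 0.67, 0.289 and 0.527 CPM in the HMRKO + sham livers, against 0.754, 0.259 and 0.261 CPM in the LC + sham livers, with a log2 fold change of 0.23 (SE 0.57, edgeR adjusted p = 0.986). A difference of the size of this error was not detectable at this level, and the sign of the value changed without single livers. Without both livers that stood apart the log2 fold change was 1.19 (unadjusted p = 0.103 by edgeR), so the estimate was unstable. The corepressor gene Ncor1 had 0.03 (SE 0.14), its partner deacetylase Hdac3 0.16 (SE 0.15) and Klb, the FGF21 co-receptor, -0.04 (SE 0.26). Of 8 tested genes of the NCoR and HDAC3 complex and 6 of FGF21 and its receptors, 0 were at an unadjusted p under 0.05, against 5.87% of all genes. Lists this short can hold 0 at that share, so nothing is drawn from this count.

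The same genotypes after MI gave a different set of differences, in livers not shared with the sham comparison. There 4400 genes (30.8%) had an adjusted p under 0.05 by edgeR and 1762 (12.4%) were also past the fold threshold, against 5 and 4 after sham. The mitochondrial share of counts was 8.68% to 9.10% in HMRKO + MI livers and 10.9% to 18.9% in LC + MI livers. These groups did not overlap, in the opposite direction to sham. Without LC + MI replicate 1 (18.9%) the calls went from 653 to 417 higher and from 1109 to 636 lower. The part of this share in the counts was not tested. Of the 5 genes that passed after sham, Pparg alone was in the same direction after MI (log2 fold change 0.63, edgeR adjusted p = 0.0200). Il6ra had 38.4, 30.7 and 35.3 CPM in HMRKO + MI livers against 25, 29 and 28.8 CPM in LC + MI livers, so that it was higher in each HMRKO liver after MI. Of the 45 genes (0.315%) at an unadjusted p under 0.001 after sham, 21 (46.7%) had the same direction after MI, and of the 838 at an unadjusted p under 0.05, 381 (45.5%) did, against 43.6% of all genes tested.

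The interaction of genotype and operation tested these differences directly. By edgeR it passed for Il6ra (adjusted p = 0.00405), Tpm2 (0.00925), Osbpl3 (0.00749) and AA986860 (0.00769), and not for Pparg (0.105) or Nr3c2 (0.408). It passed in 2175 genes (15.2%) at any fold. The genes were chosen on the sham livers, which also enter this test. Values in both settings lay in the same direction for Acod1 (3.37 after sham and 4.21 after MI), Ccl3 (4.18 and 2.81), Cidec (1.62 and 3.02) and Plin4 (0.89 and 2.03), while Mogat1 (2.93 and -0.33) and Vnn1 (1.94 and -0.08) were near 0 after MI and their interaction passed.

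**Figure D5:**
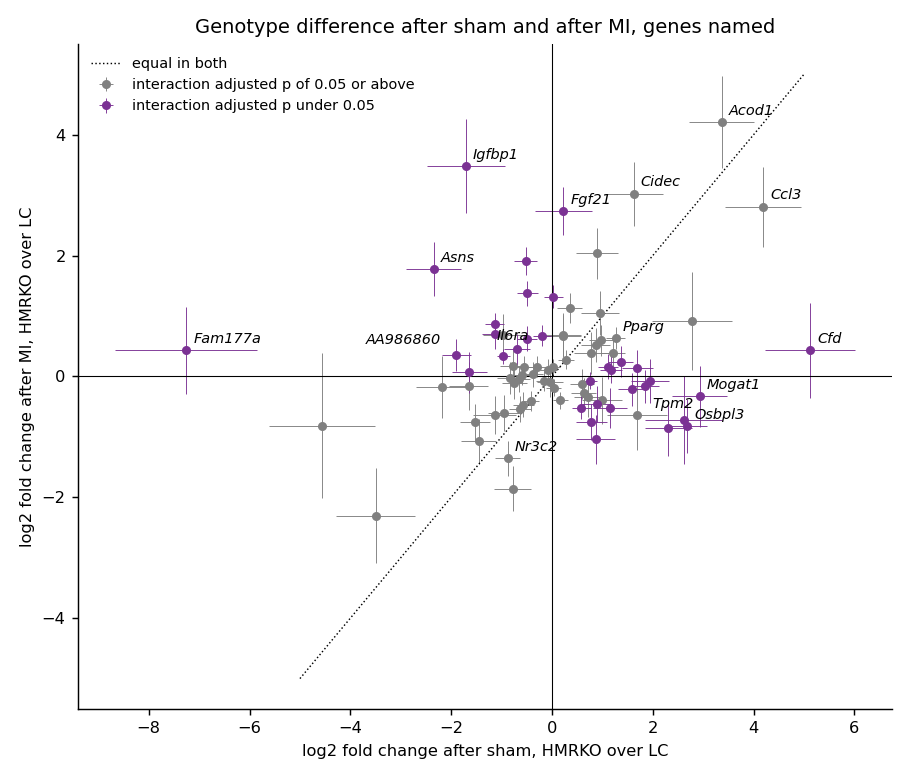
Log2 fold change of HMRKO over LC after sham (horizontal) and after MI (vertical) for the 81 genes described, with standard errors as bars. Purple points have an interaction adjusted p under 0.05 by edgeR, and Il6ra, Tpm2, Osbpl3 and AA986860 are among them, off the dotted line of equal values.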

How the data were processed

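Liver RNA was sequenced (TruSeq libraries, Illumina). For the 12 livers of 1 day the authors deposited a table of unnormalized read counts by gene, and these counts were used unchanged. The submitters' processing notes list HISAT2 2.1.0, TopHat2, Bowtie2 2.2.3 and DESeq2, with genome build mm9. The program that made the counts, its annotation and its use of strand: not given in the sources used here. Reads shared by overlapping or near-identical genes cannot be assigned further. The earlier C57 livers were not used here. The study's methods state RNAlater and the labels state freezing. The labels of the MI livers name no operation, which was taken from the design text.

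Genes were kept by filterByExpr (minimum count 10, minimum total 15), scaled by TMM and tested with the quasi-likelihood test of edgeR 4.0.16 (R 4.3.3) with 1 coefficient per group over the 12 livers, with Benjamini-Hochberg adjustment across the 14266 genes. A gene was called when its adjusted p was under 0.05 and its log2 fold change was beyond 1 in size. The biological coefficient of variation was 0.209. CPM are TMM-scaled by this fit, and levels of different genes are not per length. Summed marker levels were compared by exact permutation. Sample sources beyond the labels are not stated, so p values measure the spread between these livers. The script was tested on simulated data. Same-numbered livers did not deviate together (r of deviations -0.135, -0.07 and -0.044), so numbers were not used as pairs.

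Genes named are those past the thresholds, the 12 higher and 12 lower with the smallest p among genes that do not overlap, have at least 1 CPM and a log2 fold change beyond 1 in size, those DESeq2 1.42.0 calls, those the paper names for liver, and up to 6 members of each described list. Adipoq, Lep, Plin1 and Retn come from the marker lists and were named after their values were seen. Not every gene under the rule is named. Members and the 38 lists, written from general knowledge, were chosen with earlier results of these data known. Alternatives were RLE size factors, DESeq2, other filters, the 6 sham livers alone, a replicate block, removal of mitochondrially encoded genes, leaving out each liver, and, chosen after seeing the data, leaving out both livers that stood apart. Counting intervals cover counting error only.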

Additional observations from a re-analysis of the deposited data

Results flagged for a closer look

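For 33 of the 81 genes described, the genotype difference after MI differed from that after sham by the interaction test of edgeR at an adjusted p under 0.05. Over all genes tested this share was 15.2%. Values in parentheses are the log2 difference after MI minus that after sham. Of the 33 genes, 26 had opposite signs in both settings, and 43.6% of all genes tested had the same direction. The sham livers chose most of these genes and enter this test, which favours a pass and opposite signs. Nothing is therefore drawn from the count of 33 or from the count of 26. Several values after MI were near 0, such as -0.16 (SE 0.27) for Tpm2 and -0.08 for Vnn1. Among the genes that passed after sham these were Il6ra (1.30), AA986860 (2.26), Tpm2 (-2.02) and Osbpl3 (-3.50). Lipid and fatty acid genes that were higher after sham gave Mogat1 (-3.26), Fitm1 (-1.67), Vnn1 (-2.01), Acot3 (-3.34) and Ppard (-1.10), where Acot3 is an acyl-CoA thioesterase with close copies. Other genes higher after sham gave Cfd (-4.69), Lgals1 (-1.80), Clstn3 (-3.17), Gadd45a (-1.11), Tmem181b-ps (-1.55), Tlr5 (-0.95), Rarb (-1.06), Per3 (-0.81), Serpina6 (-1.91), mt-Co1 (-1.54) and mt-Co2 (-1.35). Genes lower after sham gave Fam177a (7.69), Nlrp12 (2.0), Serpina1e (1.71), Tceal9 (1.83), Asns (4.12), Igfbp1 (5.20) and Sdf2l1 (1.14), and the secreted acute-phase proteins Ahsg (1.13), Fgb (1.86) and Fgg (2.42). Genes with values near 0 after sham gave Stat3 (0.88), Fgf21 (2.51) and Xbp1 (1.30). The sham groups and MI groups hold 3 livers each, so no liver was removed from the main fit as an outlier. Both sham livers that stood apart were left out only in alternatives.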

How the results depend on the processing

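The model over the 12 livers called 3 genes higher and 1 lower in HMRKO + sham livers. DESeq2 called 26 and 12 and shared all 5 genes past the adjusted threshold, no filter gave 47 and 29, and the 6 sham livers alone gave 0 and 1 with none of the 5 shared. At an adjusted p under 0.05 and any fold, 3 genes were higher and 2 lower. Leaving out each liver in turn gave 0 to 8 higher and 0 to 4 lower calls, with 8 and 4 without LC + MI replicate 1, and leaving out both livers that stood apart gave 0 and 0 by edgeR, with 636 genes at an unadjusted p under 0.05. The Nr3c2 value stayed between -1.06 and -0.74 and did not pass in any alternative. With the replicate number as a block there were 3 higher and 0 lower calls, 1 of the 3 genes being among the 5. RLE size factors, a mean count of at least 10 and removal of mitochondrially encoded genes each gave 3 and 1.

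After MI the calls were 417 to 775 higher and 636 to 1235 lower over the livers left out in turn (lowest without LC + MI replicate 1), and 2089 and 2311 at any fold. The interaction had 565 higher and 876 lower calls, 292 to 674 and 514 to 1026 over the livers left out (lowest without LC + sham replicate 2), 334 and 564 without both livers that stood apart, and 962 higher at any fold. Of 1598 alternative values for 80 named genes, 16 changed sign, all in genes whose value in the main fit was smaller than its SE. Fgf21 was among them, and its value was 1.19 without both livers that stood apart. Leaving out single livers gave -0.23 to 0.027 for Il6st, -0.054 to 0.93 for Fgf21, -0.080 to 0.10 for Ncor1, -0.064 to 0.11 for Nr3c1, -0.15 to 0.052 for Klb and -0.11 to 0.23 for Xbp1, and leaving out both livers that stood apart gave -0.033 for Ncor1 and 0.10 for Klb. Of 380 list medians 36 moved by more than the spread between livers. The cause of these changes was not tested. With 3 livers a group, levels under about 1 CPM, as for Fgf21, limit what can be seen.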
